A study of Homo sapiens with 6 samples.

Results

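The genes described here are 7 ligands of the VEGF and PDGF families (VEGFA, VEGFB, VEGFC, PGF, PDGFA, PDGFB and PDGFC), the VEGF receptor kinase KDR and both neuropilins, NRP1 and NRP2. They were taken by name, as all probe sets that the platform annotation gives to exactly 1 of these 10 symbols. That rule found 32 of the 54613 probe sets tested, for 10 of 19775 genes. The arrays were made from MDA-MB-231, a long-established line of human breast carcinoma cells. There were 3 arrays of cells transfected with an HS3ST2 expression plasmid and 3 arrays of cells transfected with a control vector, with no other difference given in the labels. HS3ST2 encodes a heparan sulfate 3-O-sulfotransferase. The time between transfection and RNA extraction, and whether cells were selected or cloned, are not stated in these sources.

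VEGF and PDGF ligands are secreted dimers of related fold that act on receptor tyrosine kinases. VEGFA, VEGFB, VEGFC and PGF act on the VEGF receptors, which are best known from blood and lymphatic endothelium, and PDGF chains act on the PDGF receptors, best known from fibroblasts and mural cells. Neuropilins are co-receptors with short cytoplasmic tails that bind VEGF ligands and class 3 semaphorins, and heparan sulfate takes part in VEGF binding to them. Carcinoma cells commonly secrete VEGFA and carry neuropilins.

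Every value is a log2 expression value set relative to the median of the 6 arrays for that probe set. The deposited values had been centred in this way, so differences between arrays can be read, while the level of a gene cannot, nor whether it was near background. It also means that the pair of arrays in the middle of the order always have values of equal size and opposite sign. Differences are HS3ST2-labelled minus control vector, and a gene or probe set was called at a limma adjusted p under 0.05. Since levels are missing, the labelled cell type could not be checked by markers being present or absent. In RNA from whole cultures, fewer cells that express a gene and less RNA per cell cannot be told apart.

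The probe set of the transfected gene did not check the labels. HS3ST2 was at 0.16, 0.04 and -0.04 in the HS3ST2-labelled arrays, against -0.22, 0.17 and -0.11 in the control arrays, and these ranges overlapped (0.11 ± 0.11, SE, n = 3 per group, 95% interval -0.15 to 0.36, limma adjusted p 0.597 over probe sets). Whether it can read the RNA made from the plasmid is not stated in these sources, so the labels alone set each direction given below. The median of 6 ribosomal RNA control probe sets was 0.02, 0.16 and 0.74 in HS3ST2-labelled arrays, against -0.20, -0.06 and -0.29 in control arrays. It was highest in HS3ST2 replicate 3. Over the 3 of these probe sets named HUMRGE alone the groups overlapped (-0.05, 0.24 and 1.42 in HS3ST2-labelled arrays, against 0.05, -0.22 and -0.30 in control arrays), so the separation depends on which are used. Its part in the results below was not tested. Without that array, 13 of the 32 probe sets were called higher and 1 lower, counts equal to those with it but over a changed set, since NRP2 211844_s_at lost its call (adjusted p 0.0963) and PDGFB 216055_at gained one (adjusted p 0.0127).

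The promoter windows of NRP2, VEGFC and KDR are shown because these genes had the largest differences among the members that the sequence table holds, NRP2 and VEGFC in one direction and KDR in the other. They come from RefSeq on GRCh38.p14 and run from 250 bases before to 50 bases after an annotated start, on the gene's own strand. The table matched 6 of the 10 members (VEGFB, VEGFC, PGF, NRP2, KDR and PDGFA), with 10 windows. Capitals mark GGGCGG or its reverse complement CCGCCC, the core of a GC box.
NRP2, chr2:205682251-205682550, plus strand: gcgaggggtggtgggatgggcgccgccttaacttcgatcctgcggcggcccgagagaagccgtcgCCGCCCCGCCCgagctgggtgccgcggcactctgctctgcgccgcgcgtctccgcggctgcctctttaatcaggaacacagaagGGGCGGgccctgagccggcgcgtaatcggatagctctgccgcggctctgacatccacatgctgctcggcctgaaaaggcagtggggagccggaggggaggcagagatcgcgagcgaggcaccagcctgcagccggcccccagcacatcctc
VEGFC, chr4:176792873-176793172, minus strand: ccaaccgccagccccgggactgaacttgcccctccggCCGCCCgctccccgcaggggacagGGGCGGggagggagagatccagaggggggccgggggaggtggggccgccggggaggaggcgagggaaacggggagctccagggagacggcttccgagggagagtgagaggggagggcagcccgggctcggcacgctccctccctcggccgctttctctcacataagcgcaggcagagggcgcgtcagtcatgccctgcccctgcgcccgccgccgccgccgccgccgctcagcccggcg
KDR, chr4:55125546-55125845, minus strand: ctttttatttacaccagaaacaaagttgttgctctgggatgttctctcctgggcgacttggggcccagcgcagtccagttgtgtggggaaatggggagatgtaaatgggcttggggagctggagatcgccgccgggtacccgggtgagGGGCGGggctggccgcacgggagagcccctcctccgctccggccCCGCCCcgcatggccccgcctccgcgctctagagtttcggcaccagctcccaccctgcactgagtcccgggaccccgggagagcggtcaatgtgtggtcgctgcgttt

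The 3 windows are rich in G and C. The GC content was 70.0% for NRP2, 76.3% for VEGFC and 65.0% for KDR, against a median of 58.7% over all 35116 windows in the table. GGGCGG occurred 3 times in NRP2, where 2 matches overlap by 1 base, and 2 times each in VEGFC and KDR, and 45.0% of all windows held it on either strand. GCGTG, a core of hypoxia response elements, was found 1 time in VEGFC (36.5% of all windows, either strand), and ACGTG, the other such core, in none of the 3 (21.4% of all). Neither TGAGTCA, an AP-1 site (4.95% of all), nor TATAAA (11.5% of all) was found in the 3 windows on either strand. GGGCGG stood in the windows of the genes that rose and of KDR, which fell.

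As gene means, the VEGF-family ligands and the neuropilins were higher in the HS3ST2-labelled cells, KDR was lower, and PDGFA, PDGFB and PDGFC did not pass the test. Only 1 of 2 PGF, 2 of 4 NRP1 and 5 of 11 NRP2 probe sets were called higher. VEGFB was called in the fit over genes but not in the fit over probe sets. With the probe sets of a gene averaged, 6 of 10 genes were called higher and 1 lower, and 3 were not called. Over all genes 11.5% were called higher and 13.0% lower. The median difference was 0.26 over the 10 genes and 0.01 over all genes. Of the 32 probe sets, 13 were called higher, 1 was called lower and 18 were not called, where 7.90% of all probe sets were called higher and 8.98% lower. At 20 of the 32 no value of one group lay within the range of the other, against 34.1% of all probe sets, and for gene means this held for 8 of the 10, against 40.4% of all genes. The plot of gene values by array shows how far the groups lie apart.

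**Figure D1:**
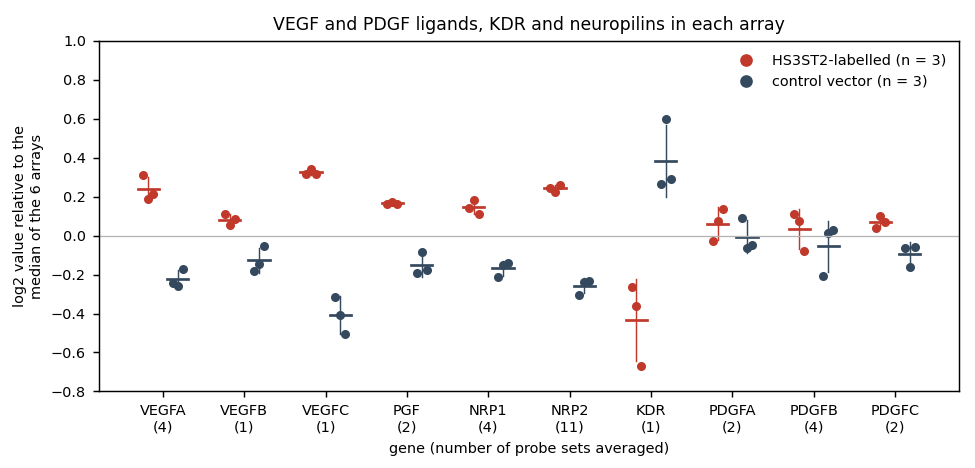
Mean log2 value of each gene's probe sets, relative to the median of the 6 arrays, in each HS3ST2-labelled array (left of each pair) and each control vector array (right). Points are arrays, long bars the group means and thin bars ± 1 SD (n = 3 per group). KDR is the only gene with all HS3ST2-labelled values below all control values, and only PDGFA and PDGFB have groups that overlap.

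VEGFC, the ligand best known for driving lymphatic vessel growth through FLT4, had the largest difference among the ligands. Its single probe set was at 0.32, 0.34 and 0.31 in HS3ST2-labelled arrays, against -0.31, -0.41 and -0.51 in control arrays. All 3 HS3ST2-labelled values lay close together and well above the control values. VEGFC rose by 0.73 ± 0.06 log2 (SE, n = 3 per group), or 1.66-fold, with an adjusted p of 1.41e-04 by limma over genes. In size, 97.7% of all genes had a difference no larger than this.

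VEGFA, the main inducer of blood vessel growth and a target of oxygen sensing, rose at all 4 of its probe sets. Averaged over them it was at 0.31, 0.19 and 0.21 in HS3ST2-labelled arrays, against -0.24, -0.26 and -0.17 in control arrays, with no overlap. This was a rise of 0.46 ± 0.06 log2 (SE, n = 3 per group), or 1.38-fold (limma adjusted p 8.63e-04). Its probe sets gave 0.54 (210512_s_at), 0.47 (211527_x_at), 0.44 (210513_s_at) and 0.39 (212171_x_at), with adjusted p from 0.00253 to 0.0125. They did not differ from one another detectably in limma's diffSplice test, which asks whether the probe sets of a gene share 1 difference (adjusted p 0.769). In that test 17.6% of the 10523 genes with 2 or more probe sets were called. The last of the 4 VEGFA probe sets lost its call without control replicate 2 (0.35, adjusted p 0.0507).

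PGF, placental growth factor, a ligand of FLT1, rose at 1 of its 2 probe sets and had no detectable difference at the other. At 209652_s_at the values were 0.31, 0.46 and 0.31 in HS3ST2-labelled arrays, against -0.37, -0.32 and -0.31 in control arrays. At 215179_x_at they were 0.01, -0.12 and 0.02 in HS3ST2-labelled arrays, against -0.01, 0.15 and -0.05 in control arrays. The groups were far apart at the first and overlapped at the second. The first rose by 0.69 ± 0.07 log2 (SE, n = 3 per group, limma adjusted p 7.17e-04), and the second did not pass (-0.06, 95% interval -0.25 to 0.12, adjusted p 0.678). The probe sets differed from each other by 0.76 (diffSplice adjusted p 5.46e-04), so the gene's mean rise of 0.32 describes neither of them.

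VEGFB, a ligand of FLT1, had a small difference at the edge of the threshold. Its single probe set was at 0.11, 0.05 and 0.08 in HS3ST2-labelled arrays, against -0.18, -0.15 and -0.05 in control arrays. The groups did not overlap, with a difference of 0.21 (95% interval 0.08 to 0.34 in the fit over genes). It was called in the fit over genes (limma adjusted p 0.0278) but not in the fit over probe sets (adjusted p 0.0713). The call over genes was lost when any 1 array except control replicate 3 was left out (adjusted p up to 0.0842).

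The co-receptor NRP2, which binds VEGFC and class 3 semaphorins such as SEMA3F, held the largest rise of any member probe set. Its 11 probe sets all had positive differences, from 0.07 to 1.71, but only 5 of them were called. The largest was at 222877_at, with 0.87, 0.99 and 0.74 in HS3ST2-labelled arrays, against -0.91, -0.89 and -0.74 in control arrays. This probe set rose by 1.71 ± 0.09 log2 (SE, n = 3 per group), or 3.27-fold, with a limma adjusted p of 4.72e-05 over probe sets. It was followed by 225566_at, with 0.54, 0.40 and 0.47 in HS3ST2-labelled arrays, against -0.57, -0.40 and -0.50 in control arrays (0.96, adjusted p 2.12e-04). In both the groups were separated by more than the spread within either group.

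The 3 other NRP2 probe sets that rose did so by less. At 219367_s_at the values were 0.38, 0.28 and 0.20 in HS3ST2-labelled arrays, against -0.38, -0.50 and -0.20 in control arrays (0.65, limma adjusted p 0.00292). At 229225_at they were 0.21, 0.21 and 0.35 in HS3ST2-labelled arrays, against -0.44, -0.21 and -0.37 in control arrays (0.60, adjusted p 0.00286). At 211844_s_at they were 0.16, 0.06 and 0.35 in HS3ST2-labelled arrays, against -0.38, -0.06 and -0.29 in control arrays (0.43, adjusted p 0.0320). The last call was lost without HS3ST2 replicate 1 or 3 or control replicate 1 or 3 (adjusted p 0.0751 to 0.0969).

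At 3 of the 6 NRP2 probe sets that were not called the groups did not overlap, and at the other 3 they did. At 214632_at the values were 0.03, 0.08 and 0.58 in HS3ST2-labelled arrays, against -0.03, -0.20 and -0.50 in control arrays, a difference of 0.47 that is large but scattered (adjusted p 0.109). At 1555468_at they were 0.28, 0.02 and 0.02 in HS3ST2-labelled arrays, against -0.32, -0.02 and -0.06 in control arrays (0.24, adjusted p 0.206). At 223510_at they were 0.09, 0.22 and 0.01 in HS3ST2-labelled arrays, against -0.16, -0.01 and -0.02 in control arrays (0.17, adjusted p 0.236). These 3 were separated by narrow gaps between the nearest arrays of the groups.

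The other 3 gave the smallest differences of the gene. At 210842_at the values were -0.03, 0.15 and 0.04 in HS3ST2-labelled arrays, against -0.17, 0.01 and -0.01 in control arrays (0.11, adjusted p 0.426). At 228699_at they were -0.07, 0.07 and 0.11 in HS3ST2-labelled arrays, against -0.15, -0.16 and 0.08 in control arrays (0.11, adjusted p 0.474). At 210841_s_at they were 0.23, -0.03 and 0.00 in HS3ST2-labelled arrays, against 0.18, -0.18 and 0.00 in control arrays (0.07, adjusted p 0.760). In these 3 the arrays of both groups were mixed.

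The NRP2 probe sets differed in how far they moved. The diffSplice test over the gene gave an adjusted p of 5.08e-10. Measured against the mean of the gene's other 10 probe sets, 222877_at stood higher by 1.33 (adjusted p 7.24e-11) and 225566_at by 0.50 (adjusted p 0.00356). Probe sets 210841_s_at, 210842_at, 228699_at and 223510_at stood below the others (-0.48, -0.43, -0.43 and -0.37, adjusted p 0.00568 to 0.0380). In all, 6 of the 11 differed from the rest of the gene, where 10.7% of the 31839 probe sets tested did. NRP2 as a gene rose by 0.50 ± 0.05 log2 (SE, n = 3 per group, limma adjusted p 3.19e-04), but the single probe sets span from no detectable difference to a 3.27-fold rise. These sources do not state which NRP2 transcript each probe set reads.

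NRP1, the neuropilin that binds VEGFA and SEMA3A, divided into 2 pairs of probe sets. At 212298_at the values were 0.32, 0.45 and 0.34 in HS3ST2-labelled arrays, against -0.62, -0.48 and -0.32 in control arrays, and at 1561365_at they were 0.17, 0.33 and 0.21 in HS3ST2-labelled arrays, against -0.29, -0.22 and -0.17 in control arrays. These rose by 0.84 ± 0.09 and 0.46 ± 0.07 log2 (SE, n = 3 per group, limma adjusted p 9.12e-04 and 0.00454). At 210510_s_at the values were 0.07, -0.06 and 0.00 in HS3ST2-labelled arrays, against 0.00, 0.06 and -0.02 in control arrays, and at 210615_at they were -0.01, 0.01 and -0.10 in HS3ST2-labelled arrays, against 0.07, 0.04 and -0.05 in control arrays. Both of these overlapped between the groups (-0.01 with an interval of -0.16 to 0.15, and -0.05 with an interval of -0.21 to 0.11).

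The pairs of NRP1 probe sets differed beyond their error. The test over the gene gave a diffSplice adjusted p of 4.26e-06. Of the 4 probe sets 3 differed from the others, where 10.7% of all probe sets so tested did. Against the gene's other probe sets, 212298_at stood higher by 0.71 (adjusted p 9.49e-06), while 210510_s_at (-0.43, adjusted p 0.00213) and 210615_at (-0.48, adjusted p 6.77e-04) stood below. The mean rise of 0.31 ± 0.05 log2 (SE, limma adjusted p 0.00346) therefore averages a rise and no detectable difference. NRP1, NRP2 and PGF were the 3 members, of 7 with 2 or more probe sets, whose probe sets differed, where 17.6% of all such genes did. The count of members was also 3 in each fit that left out 1 array. The plot of every neuropilin probe set shows the graded series in NRP2 and the split in NRP1.

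**Figure D2:**
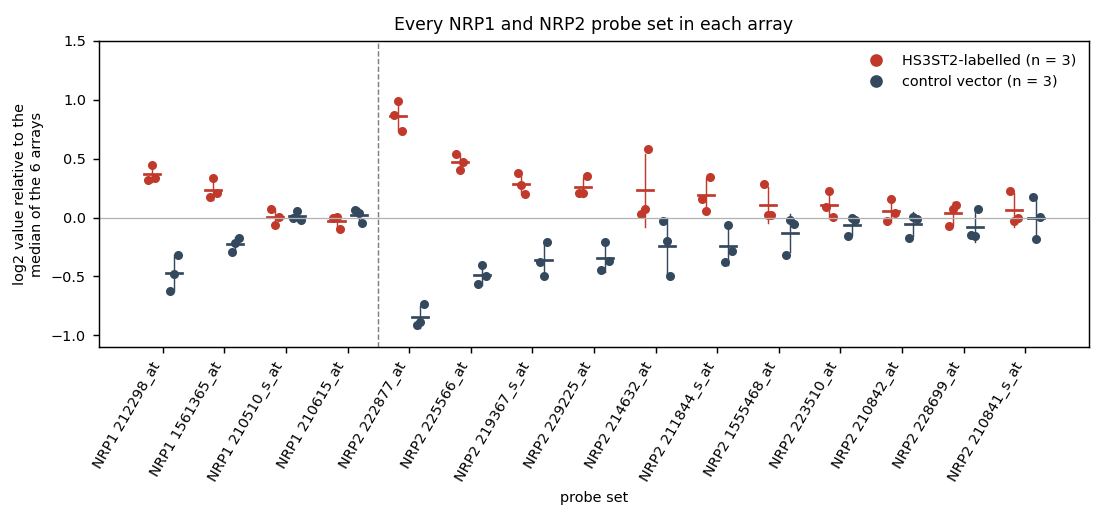
Log2 value of each of the 4 NRP1 probe sets (left of the dashed line) and 11 NRP2 probe sets (right), relative to the median of the 6 arrays, with HS3ST2-labelled arrays left of control vector arrays in each pair. Points are arrays, long bars means and thin bars ± 1 SD (n = 3 per group). The distance between the groups shrinks across NRP2 from 1.71 at 222877_at to 0.07 at 210841_s_at, and it is near 0 at the last pair of NRP1 probe sets.

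KDR, the kinase that carries most endothelial responses to VEGFA, was the only member that fell. Its single probe set was at -0.26, -0.36 and -0.67 in HS3ST2-labelled arrays, against 0.26, 0.60 and 0.29 in control arrays. The groups did not overlap, although each held 1 array away from the other 2. KDR fell by 0.82 ± 0.12 log2 (SE, n = 3 per group), to 0.568 of the control value, with a limma adjusted p of 0.00232 over genes. It fell by 0.70 to 0.90 when 1 array was left out, and the call was kept in all 6 of those fits. Since the values carry no level, these data do not show whether KDR was well expressed in either group.

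None of PDGFA, PDGFB and PDGFC was called by limma, at any of their 8 probe sets, of which 2 had an unadjusted p under 0.05. PDGFC, a ligand that is secreted with a CUB domain that must be cut off, came nearest, at 0.04, 0.10 and 0.07 in HS3ST2-labelled arrays, against -0.06, -0.16 and -0.06 in control arrays. The groups did not overlap, and the difference of 0.16 (95% interval 0.04 to 0.29) had an adjusted p of 0.0638 by limma over genes. Both of its probe sets gave about this value (0.17 and 0.16).

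PDGFA and PDGFB, the classical PDGF chains, overlapped between the groups. PDGFA was at -0.03, 0.07 and 0.14 in HS3ST2-labelled arrays, against 0.09, -0.06 and -0.05 in control arrays (0.07, 95% interval -0.09 to 0.22, limma adjusted p 0.543). PDGFB was at 0.11, 0.08 and -0.08 in HS3ST2-labelled arrays, against -0.20, 0.01 and 0.03 in control arrays (0.09, 95% interval -0.10 to 0.28, adjusted p 0.502). The 4 PDGFB probe sets ranged from -0.16 to 0.38. The highest, 216055_at, was at 0.44, 0.54 and -0.05 in HS3ST2-labelled arrays, against -0.08, -0.17 and 0.05 in control arrays. Its difference of 0.38 did not pass (adjusted p 0.144), but without HS3ST2 replicate 3, which lay among the controls, it was 0.56 and passed (adjusted p 0.0127). Whether the VEGF and PDGF ligands differ from each other in their response was not tested.

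**Figure D3:**
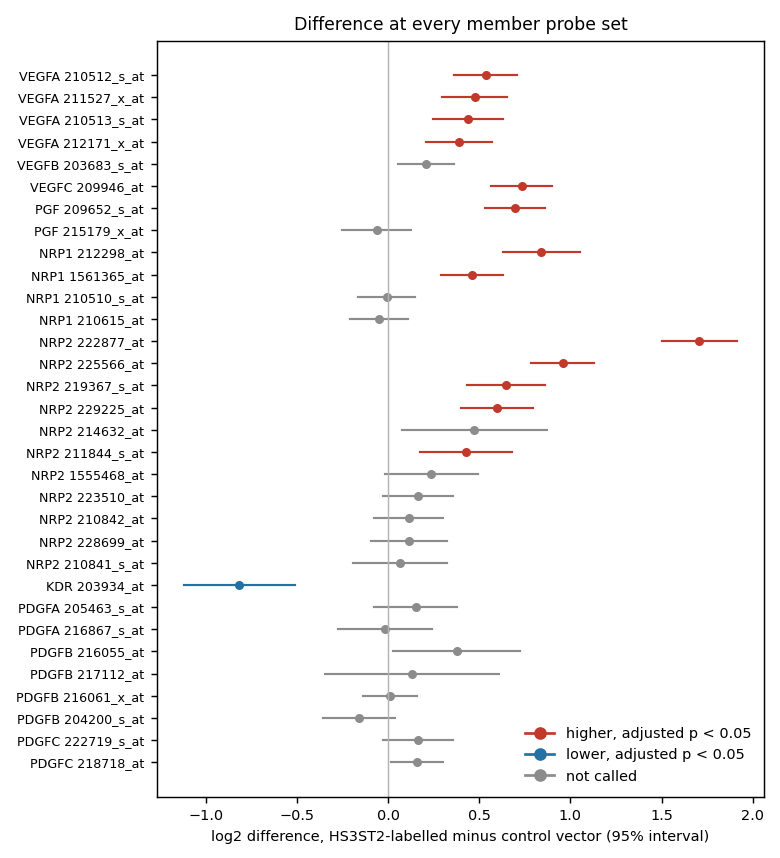
Log2 difference, HS3ST2-labelled minus control vector, at each of the 32 probe sets, with 95% intervals from limma (3 arrays per group). Red and blue mark probe sets called higher (13) and lower (1), and grey marks the 18 that were not called. All 4 VEGFA probe sets lie to the right of 0, those of NRP1, NRP2 and PGF are spread, and KDR lies alone on the left.

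The genes that act with these ligands and receptors moved in both directions. Of 73 genes in 7 lists of partners, 68 were measured, of which 14 rose (20.6%, against 11.5% of all genes), 17 fell (25.0%, against 13.0%) and 37 did not pass. The remaining receptors for the ligands gave no calls by limma, and 0 of these 4 had an unadjusted p under 0.05. FLT1 and FLT4, the other VEGF receptor kinases, differed by -0.07 (95% interval -0.18 to 0.04, limma adjusted p 0.367) and -0.11 (-0.28 to 0.06, adjusted p 0.345), and PDGFRA and PDGFRB by 0.05 each (adjusted p 0.657 and 0.787). The 4 receptors had values of both groups mixed, except FLT1, whose groups were separate by a narrow gap.

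PDGFD, the fourth PDGF ligand, fell. Averaged over 2 probe sets, both of which were called, it was at -0.53, -0.25 and -0.42 in HS3ST2-labelled arrays, against 0.32, 0.44 and 0.26 in control arrays. The groups were apart, with a fall of 0.74 ± 0.08 log2 (SE, n = 3 per group, limma adjusted p 5.79e-04). PDGFRL, a PDGF receptor-like gene, fell by 0.30 ± 0.05 (adjusted p 0.00463).

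Among the other partners of neuropilins, some class 3 semaphorins fell and some plexins rose. Of 7 semaphorins, secreted ligands that bind neuropilins or plexins, 4 fell and none rose, and of 5 plexins, the signalling partners of neuropilins, 3 rose and none fell. Both families come from a single list, divided after its values were seen, in which 58.3% of 12 genes were called, against 24.5% of all genes. SEMA3C was at -0.34, -0.42 and -0.47 in HS3ST2-labelled arrays, against 0.38, 0.34 and 0.45 in control arrays (-0.80 ± 0.06 log2, SE, limma adjusted p 8.07e-05). SEMA3E, which binds PLXND1 directly, fell by 0.76 ± 0.07 (adjusted p 1.95e-04) and SEMA3A by 0.42 ± 0.08 (adjusted p 0.00581). The difference of SEMA3F was small (-0.18, adjusted p 0.0473), and its call was lost on leaving out any 1 array but HS3ST2 replicate 1. None of the 3 SEMA3F probe sets was called in the fit over probe sets. The other 3 semaphorins had positive differences that did not pass, of 0.41 for SEMA3G (adjusted p 0.0674), 0.18 for SEMA3B (adjusted p 0.247) and 0.10 for SEMA3D (adjusted p 0.235). SEMA3G was called higher without HS3ST2 replicate 3 or control replicate 3 (0.51 in both fits, lower adjusted p 0.0436), and SEMA3B without control replicate 3 (0.30, adjusted p 0.0326).

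PLXND1 was at 0.35, 0.29 and 0.19 in HS3ST2-labelled arrays, against -0.24, -0.30 and -0.34 in control arrays. It rose by 0.57 ± 0.06 log2 (SE, n = 3 per group, limma adjusted p 4.43e-04), with 2 of 3 probe sets called and a range from 0.01 to 0.87. PLXNA1 and PLXNA2 rose by 0.25 ± 0.07 and 0.23 ± 0.05 (adjusted p 0.0287 and 0.0169). The call of PLXNA1 was lost in 4 of the 6 fits that left out 1 array, and that of PLXNA2 in 3. PLXNA3 (0.09, adjusted p 0.391) and PLXNA4 (-0.04, adjusted p 0.711) did not pass. Only 1 of these 12 genes was called higher without control replicate 2.

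The proteases that mature the ligands, listed with the cofactor CCBE1, also went both ways, with 4 of 10 genes higher and 2 lower (60% called, against 24.5% of all genes). CCBE1, a matrix protein that promotes the cleavage of VEGFC, was at 0.52, 0.34 and 0.61 in HS3ST2-labelled arrays, against -0.42, -0.37 and -0.44 in control arrays, a rise of 0.90 ± 0.07 log2 (SE, n = 3 per group, limma adjusted p 1.28e-04). ADAMTS3, the protease that CCBE1 works with, was at -0.37, -0.22 and -0.12 in HS3ST2-labelled arrays, against 0.53, 0.39 and 0.12 in control arrays, a fall of 0.58 ± 0.11 (adjusted p 0.00655). Thus the pair changed in opposite directions beside the rise of their substrate. The proprotein convertases PCSK5 and FURIN, which cut VEGF and PDGF precursors, rose by 1.26 ± 0.10 and 0.32 ± 0.08 (adjusted p 1.12e-04 and 0.0261). The call of FURIN was lost in 4 of the 6 fits that left out 1 array. Its single probe set was not called in the fit over probe sets.

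PLAT and PLAU, plasminogen activators that can cut the CUB domains of PDGFC and PDGFD, differed in direction. PLAT, which activates PDGFC, was at 0.55, 0.63 and 0.59 in HS3ST2-labelled arrays, against -0.65, -0.58 and -0.55 in control arrays, and PLAU, which activates PDGFD, was at -0.19, -0.33 and -0.26 in HS3ST2-labelled arrays, against 0.19, 0.20 and 0.25 in control arrays. PLAT rose by 1.18 ± 0.05 log2 and PLAU fell by 0.47 ± 0.06 (SE, n = 3 per group, limma adjusted p 1.07e-05 and 7.80e-04). PDGFC itself was not called, and PDGFD fell.

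The list of extracellular binders and inhibitors held the largest changes of the 68 partner genes. Of its 9 genes 3 were higher and 3 lower (66.7% called, against 24.5% of all genes). ADAMTS1, a metalloprotease that binds VEGFA, was at -0.72, -0.63 and -0.68 in HS3ST2-labelled arrays, against 0.56, 0.69 and 0.61 in control arrays (-1.30 ± 0.06 log2, SE, limma adjusted p 9.02e-06). THBS2, an inhibitor of vessel growth, was at 1.39, 1.34 and 1.05 in HS3ST2-labelled arrays, against -1.84, -1.51 and -1.05 in control arrays (2.72 ± 0.18, adjusted p 5.15e-05). These went in opposite directions although both are known to restrain vessel growth. CCN2, which binds VEGFA, and CCN1 fell by 0.37 ± 0.06 and 0.21 ± 0.05 (adjusted p 0.0033 and 0.0194), and VASH2, a vasohibin, rose by 0.26 ± 0.06 (adjusted p 0.0177). The call of CCN1 was lost in 4 of the 6 fits that left out 1 array (adjusted p up to 0.0626), and that of VASH2 in 2. The 3 VASH2 probe sets ranged from -0.23 to 0.65, and 1 of them was called higher. A2M was also called higher, near the threshold (0.26 ± 0.08, SE, limma adjusted p 0.0452). Neither of its 2 probe sets was called in the fit over probe sets. Only 1 gene of the list was called higher without HS3ST2 replicate 3 or without control replicate 2.

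Of 10 regulators of oxygen sensing, which control VEGFA, 2 rose and 1 fell, a share of 30.0% that is near the 24.5% of all genes. HIF1AN, a hydroxylase that inhibits HIF, rose by 0.36 ± 0.05 log2 (SE, n = 3 per group, limma adjusted p 0.00135). VHL, which marks HIF for degradation, rose by 0.23 ± 0.05 (adjusted p 0.0160), a call lost without HS3ST2 replicate 3. Neither of the 2 VHL probe sets was called in the fit over probe sets. ARNT, the partner subunit of HIF, fell by 0.21 ± 0.05 (adjusted p 0.0168), a call that was lost without HS3ST2 replicate 1, HS3ST2 replicate 3 or control replicate 3. HIF1A was at -0.07 (95% interval -0.21 to 0.08) and EPAS1 at -0.04 (-0.20 to 0.11), and neither was called.

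Of 10 measured adaptors of these receptors, 1 rose and 2 fell, a share of 30.0% that is near the 24.5% of all genes. NCK1, an adaptor that binds phosphorylated receptors, rose by 0.46 ± 0.05 log2 (SE, n = 3 per group) at all 4 of its probe sets (limma adjusted p 5.63e-04). GRB2 fell by 0.30 ± 0.06 (adjusted p 0.0066) and BCAR1, a docking protein, by 0.29 ± 0.08 (adjusted p 0.0337), a call lost on leaving out any 1 array but control replicate 2. Of 11 other factors that act on vessels, 3 fell and 1 rose (36.4% called, against 24.5% of all genes). IL6 and ADM fell by 1.10 ± 0.06 and 0.95 ± 0.05 (adjusted p 1.79e-05 and 2.11e-05), CXCL8, a chemokine, fell by 0.36 ± 0.05 (adjusted p 0.0014), and ANG, angiogenin, rose by 0.46 ± 0.08 (adjusted p 0.00544). VEGFA, which rose, and ADM are both known to be induced by hypoxia. A part of hypoxia in these differences was not tested.

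**Figure D4:**
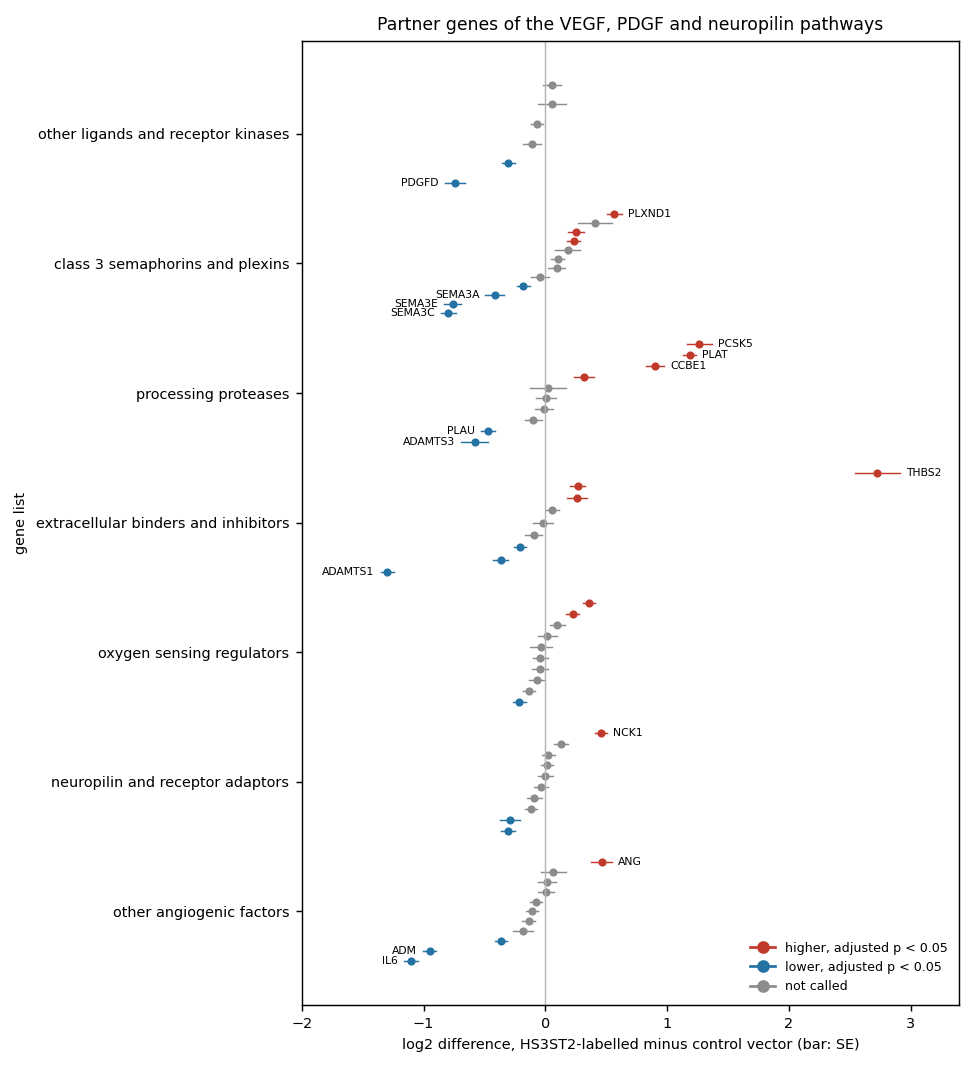
Log2 difference, HS3ST2-labelled minus control vector, of the 68 measured genes in 7 lists of pathway partners, sorted by size within each list; bars are SE (3 arrays per group). Red marks the 14 genes called higher, blue the 17 called lower and grey the 37 not called, with names for called genes beyond 0.4. THBS2 (2.72) and ADAMTS1 (-1.30) are the extremes.

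Markers of other cell types that express these receptors showed no common shift. Of 10 endothelial markers, VWF rose (0.27 ± 0.08 log2, SE, limma adjusted p 0.0347) and CLDN5 fell (-0.30 ± 0.08, adjusted p 0.0284). This was 20% of the list, against 24.5% of all genes called. Both calls were lost without HS3ST2 replicate 3 or control replicate 1 or 2, and that of VWF also without HS3ST2 replicate 1 or 2. The single CLDN5 probe set was not called in the fit over probe sets. PECAM1 was not called as a gene, but its 5 probe sets ranged from -0.75 to 0.31, with 1 called higher and 1 lower. The mean over the list was -0.05 to 0.05 in HS3ST2-labelled arrays, against -0.05 to 0.03 in control arrays. Of 10 fibroblast and mural markers none was called by limma as a gene mean (0 at an unadjusted p under 0.05), where 24.5% of all genes were called. Their list means were -0.00262 to 0.0216 in HS3ST2-labelled arrays, against -0.0289 to 0.0217 in control arrays. Of the 5 COL1A1 probe sets, which ranged from -0.36 to 0.15, 1 was called lower in the fit over probe sets. In 12 identity markers of breast cancer lines, CDH1 and KRT18 rose (0.42 and 0.26, adjusted p 0.0130 and 0.0220) and CD44, MSN and VIM fell (-0.59, -0.18 and -0.20, adjusted p 2.21e-04, 0.0289 and 0.0376), a share of 41.7% called against 24.5% of all genes. On leaving out 1 array the call was lost in 4 of 6 fits for KRT18, 5 for MSN and 5 for VIM, and in none for CDH1 and CD44. KRT18, MSN and VIM had no probe set called in the fit over probe sets. Of the 7 markers not called, PGR had a negative difference (-0.14). AXL (0.15), CAV1 (0.07), KRT8 (0.18), GATA3 (0.13), ESR1 (0.09) and ERBB2 (0.02) had positive ones. AXL had 1 probe set called higher and 1 called lower. Of the 9 ESR1 probe sets, which ranged from -0.18 to 0.34, 1 was called higher.

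The genes whose values over the 6 arrays lay closest to those of 3 members were found by the root mean square difference of gene means. For NRP2 these were FTO (0.015), N4BP1 (0.020) and MAN2A2 (0.022), and for NRP1 they were PRDM1 (0.017), GSN (0.019) and DLAT (0.020). For VEGFC they were CRNDE (0.040), MTARC2 (0.042) and CEBPD (0.050). All 9 genes were called higher themselves (limma adjusted p of 0.00481 or less), so the likeness mostly restates the difference between the groups.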

How the data were processed

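Total RNA was labelled with biotin and hybridised to 6 Affymetrix arrays, per the labels' protocols. The deposited log2 values were made by the authors with RMA, per the submitters' processing notes. Each probe set had a median of 0 over the 6 arrays and had thus been centred, with a tool these sources do not name. A log base of 2, which they do not state either, was assumed.

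In all, 62 control probe sets of the deposited file were set aside. Of the 54613 tested, 41091 had 1 gene symbol in GEO's platform annotation, 1801 several and 11721 none. A current gene record was found for 41037 of the first, and averaging the probe sets of a gene gave 19775 genes. HS3ST2-labelled arrays were compared with control arrays by limma 3.58.1 (R 4.3.3; lmFit, eBayes, diffSplice), without covariates, with Benjamini-Hochberg adjustment over all features. diffSplice treats the probe sets of an array as independent. The fits were tested on simulated data. The labels call the 3 replicates of each group independent without saying from what, so p-values measure the spread between these arrays, whose number limits the precision.

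The members and lists were chosen with earlier results of these data known. The naming rule covered HS3ST2, the members, up to 5 called genes of each list with the smallest p and the 3 genes closest to NRP1, NRP2 and VEGFC. FLT1, FLT4, PDGFRA, PDGFRB, SEMA3B, SEMA3D, SEMA3F, SEMA3G, PLXNA1, PLXNA3, PLXNA4, FURIN, HIF1A and EPAS1 were named outside it, after their values were seen. So were A2M and the markers named above that were not called as genes. The list of semaphorins and plexins was divided by family, the promoters shown were picked, and the ribosomal RNA probe sets were extended from HUMRGE to M27830, all after values were seen. VEGFD, GIPC1, SYNJ2BP, CRK and PIK3CA were listed but had no probe set with 1 symbol. The alternatives were a replicate block, each array left out, quantile normalization, median centring of arrays, array weights, robust eBayes, other thresholds, only probe sets with 1 symbol, no probe sets ending in _x_at or _s_at, and the largest-SD or median probe set for a gene. Filters on dim probe sets need levels and were not used.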

Additional observations from a re-analysis of the deposited data

Results flagged for a closer look

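The 6 control probe sets for ribosomal RNA, which enter no comparison of genes, had a higher median in every HS3ST2-labelled array than in any control array. The median was 0.31 ± 0.38 log2 in HS3ST2-labelled arrays and -0.18 ± 0.12 in control arrays (mean ± SD, n = 3 each, two-sided exact permutation p 0.1, the smallest that 3 against 3 allows). The 3 probe sets named HUMRGE were taken first, and the 3 named M27830 were added after those values were seen. With the HUMRGE probe sets alone the groups overlapped, at 0.54 ± 0.78 log2 in HS3ST2-labelled arrays and -0.15 ± 0.18 in control arrays (mean ± SD, n = 3 each, two-sided exact permutation p 0.2). The part of this signal in the results was not tested.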

How the results depend on the processing

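No called value of a member changed direction under any alternative that was run. Leaving out 1 array gave 12 to 13 member probe sets higher and 1 lower, 5 to 6 member genes higher and 1 lower, 4 to 5 NRP2 and 2 NRP1 probe sets higher, and 3 members whose probe sets differed. With the _x_at and _s_at probe sets left out, 16 of the 32 probe sets and 6 of the 10 genes were left, of which 6 probe sets and 3 genes were called higher; of 8 NRP2 probe sets left, 3 were. All probe sets of VEGFA, VEGFB, PGF and PDGFA carry these endings, so their values rest on them. That setting also left 1 gene higher and 1 lower among semaphorins and plexins, 1 lower each among other ligands and kinases, proteases, binders and adaptors, and 1 higher and 0 lower by limma among the 8 oxygen sensing regulators left (1 lower at an unadjusted p under 0.05). At an adjusted p under 0.01, 11 probe sets and 5 genes were higher, 1 gene was higher in each of the semaphorin and plexin, binder and oxygen lists, 1 adaptor was lower and 0 oxygen regulators were lower by limma (2 at an unadjusted p under 0.05); under 0.1, 2 oxygen regulators were lower. With the probe set of largest SD, 5 genes were higher, VEGFB being lost (adjusted p 0.0667), with 1 oxygen regulator higher, 1 adaptor lower and 5 other angiogenic factors lower. Leaving out 1 array gave 1 to 4 semaphorins and plexins higher, 1 to 3 binders higher, 1 to 2 adaptors lower, and 1 to 2 oxygen regulators higher and 0 to 1 lower by limma (at least 1 at an unadjusted p under 0.05 in each such fit). The replicate numbers did not pair the arrays, since the deviations of same-numbered arrays correlated at 0.15, 0.04 and -0.08, and not every array correlated best with its own number. With the replicate block 12 probe sets and 5 genes were called higher, the losses being NRP2 211844_s_at (adjusted p 0.0624) and VEGFB (adjusted p 0.0557). Quantile normalization, median centring, array weights and robust eBayes each gave 13 probe sets and 6 genes higher and 1 of each lower. With only the HUMRGE probe sets, an alternative chosen after seeing the data, the ribosomal RNA difference was 0.69 (exact permutation p 0.2), against 0.49 (p 0.1) with all 6.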
